A study of Mus musculus with 6 samples.

Results

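The genes of the proteasome, the protease complex that degrades ubiquitin-tagged proteins, were examined in mouse primary cardiomyocytes kept for 24 h in hypoxia. Members were all rows whose symbol starts with Psm, a letter from a to g and a digit, and 51 of 21741 symbols met this rule. Of these, 49 encode subunits, activators, an inhibitor or assembly chaperones of the complex, and 2 match by name alone: Psmc3ip, a meiotic recombination factor, and Psme3ip1, a protein that binds the activator PA28 gamma. After the filter on low counts 48 of the 51 were tested. The 3 that were not are Psma8, the testis variant of an alpha subunit, with at most 0.625 CPM (counts scaled to the size of each library) anywhere, Psmb11, the thymus subunit, with 0 counts in every library, and Psme2b, a close copy of Psme2, with at most 0.216 CPM.

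The study compared 3 libraries of cells that received the adenovirus Adv-ABHD11, labelled as overexpressing ABHD11, with 3 libraries of cells that received Adv-NC, labelled WT. Both groups spent the same 24 h in hypoxia and carry the same batch number in the labels. ABHD11 is a mitochondrial hydrolase, and the study concerns its link with transcription of mitochondrial DNA and with ferroptosis, a form of cell death through lipid peroxidation. No source used here gives the strain and age of the mice, the promoter in the virus or whether replicates are separate cultures. The p-values thus weigh the group difference against the variation between libraries of a group, and that variation may be technical in part or whole.

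The proteasome has a barrel-shaped core particle of alpha and beta rings, in which 3 of the beta subunits cut proteins. A regulatory particle caps the core, with a ring of ATPases in its base that unfolds substrates and a lid that removes ubiquitin. In immune cells, and in other cells under interferon gamma, the cutting subunits Psmb5, Psmb6 and Psmb7 are replaced by Psmb8, Psmb9 and Psmb10 to form the immunoproteasome, which makes peptides for MHC class I. In heart muscle the proteasome clears damaged and oxidised proteins and takes part in the turnover of the sarcomere.

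Library totals ran from 16291172 to 19525215 counts with Adv-ABHD11 and from 18217145 to 20336833 with Adv-NC, so 1 count was worth 0.0492 to 0.0614 CPM before scaling factors. Counts of mouse Abhd11 were 636, 769 and 736 with Adv-ABHD11 and 584, 675 and 661 with Adv-NC (log2 fold change 0.21 with a standard error of 0.101, edgeR adjusted p = 0.0765), which did not pass. In CPM the groups did not overlap, at 38.0, 42.5 and 36.2 with Adv-ABHD11 and 31.5, 35.2 and 33.9 with Adv-NC. Abhd11 passed as higher with upper-quartile scaling (edgeR adjusted p = 0.00999), library size only (0.0294) and the GC and length correction (0.000287). Whether reads of the transgene count towards mouse Abhd11 is not given, so these values are a weak check of the labels. All 7 cardiomyocyte markers were present, and their summed level was 31419 to 33546 CPM with Adv-ABHD11 and 16836 to 18018 CPM with Adv-NC. Other cell types were present too. The 5 endothelial markers summed to 378 to 421 CPM with Adv-ABHD11 and 202 to 232 CPM with Adv-NC, and the 5 fibroblast markers to 7707 to 10621 CPM with Adv-ABHD11 and 9892 to 12475 CPM with Adv-NC. Col1a1 and Col1a2 make up most of that fibroblast sum, and Tcf21 of the same list was higher, at 134.7 CPM with Adv-ABHD11 and 43.8 CPM with Adv-NC. The 7 leukocyte markers summed to 57.2 to 65.0 CPM with Adv-ABHD11 and 66.0 to 85.7 CPM with Adv-NC. The 4 lung epithelial markers summed to 119.9 to 130.1 CPM with Adv-ABHD11 and to at most 0.0513 CPM with Adv-NC, where Scgb1a1, Sftpc and Sftpa1 were at 0 in every library. For the cell types present in both groups, fewer cells of a type and less RNA per cell cannot be told apart in these bulk samples. The lung epithelial transcripts came almost wholly from the Adv-ABHD11 libraries. A difference in cell content between the groups therefore cannot be told apart from the virus. The part of these shifts in the proteasome values was not tested.

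Proteasome genes were lower in the Adv-ABHD11 libraries across nearly the whole complex. Of the 48 tested members 37 were lower, 77.1% of them, against 29.5% of all 12790 tested genes that were lower. A single member, the activator Psme4, was higher, or 2.08%, against 29.9% of all genes, and 10 did not pass (edgeR quasi-likelihood test, Benjamini-Hochberg adjusted p under 0.05; 59.3% of all genes passed in either direction). The median log2 fold change of the tested members was -0.41, beside 0.016 for all tested genes. Whether or not a member passed, the 2 groups were fully separated with Adv-ABHD11 below Adv-NC for 36 members, against 31.7% of all genes. They were separated with Adv-ABHD11 above for 3 members, against 31.5% of all genes (63.2% in either direction). Psmd9 and Psmd10 among the 36, and Psme1 and Psmg2 among the 3, did not pass. Psmb1, Psmd13 and Psme2 passed as lower although their groups overlapped. Among the 31 subunits of the core and regulatory particles with a Psm symbol, 29 were lower and 0 higher, and the exceptions were Psmb5 and Psmc6. Subunits with other symbols, Adrm1 and Sem1, are given further below. The decreases were mostly small: the median of the 31 was a 1.34-fold lower level, and Psmd8 alone was lower by more than 2-fold.

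**Figure D1:**
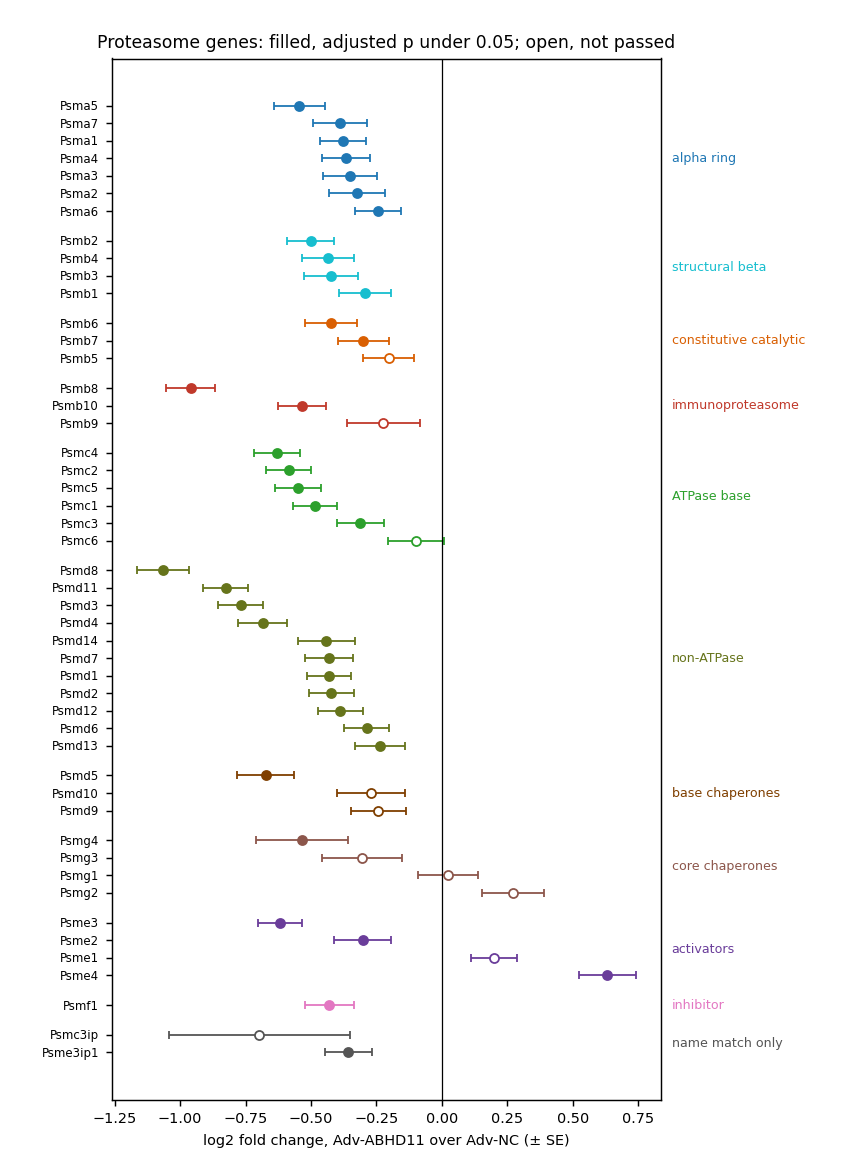
Log2 fold change of each tested proteasome gene, Adv-ABHD11 over Adv-NC, with its standard error, arranged by part of the complex; filled points passed an adjusted p under 0.05. Most points lie left of 0, from -1.07 for Psmd8, and Psme4 at 0.63 is the filled point on the right.

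The summed level of the 31 subunits was 4683, 5396 and 4669 CPM in the Adv-ABHD11 libraries and 6357, 7056 and 6857 CPM in the Adv-NC libraries. The groups did not overlap, and the mean sum was 27.2% lower with Adv-ABHD11. Replicate 2 of each group had the highest sum of that group, and it held the highest value for 27 of the 31 genes in the Adv-ABHD11 group and for 19 in the Adv-NC group. For the 17 regulatory subunits alone replicate 3 of Adv-NC had the highest sum of its group, 3984 CPM, against 3960 CPM in replicate 2. Without Adv-ABHD11 replicate 2 the median log2 fold change of the 31 was -0.48, and with all libraries it was -0.42.

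Motifs of transcription factors known to act on proteasome genes were sought in the promoters of the members, since the subunits moved together. NRF1, encoded by Nfe2l1, raises proteasome genes when proteasome activity falls, and it shares with NRF2, encoded by Nfe2l2, the antioxidant response element, searched as TGACNNNGC on both strands. RefSeq (GRCm38.p6) gave 1 or more starts for 43 of the 51 members, and the window ran from 250 bases before to 50 after each start. The letters were found at 6 of the 43 members, or 14.0%, and at 14.0% of all 27025 genes listed, the same share. The 6 are shown with the match in capitals and up to 25 bases on each side (fewer at either end of the window and near the start), as read along the strand of the gene, because they include genes that fell, a gene that rose and genes that did not pass.
Psmb5 (chr14:54618009-54618067, minus strand): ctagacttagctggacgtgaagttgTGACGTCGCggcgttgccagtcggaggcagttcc
Psmb6 (chr11:70525323-70525356, plus strand): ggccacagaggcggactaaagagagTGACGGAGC
Psmc6 (chr14:45329574-45329630, plus strand): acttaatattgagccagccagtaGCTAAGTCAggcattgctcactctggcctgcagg
Psmd12 (chr11:107479278-107479314, plus strand): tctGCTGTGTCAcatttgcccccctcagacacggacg
Psmd9 (chr5:123228134-123228189, plus strand): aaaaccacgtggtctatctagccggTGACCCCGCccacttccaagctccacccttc
Psme4 (chr11:30771758-30771786, plus strand): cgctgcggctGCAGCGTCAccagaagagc
Of these, Psmb6 and Psmd12 were lower, Psme4 was higher, and Psmb5, Psmc6 and Psmd9 did not pass. A match is a run of letters and not a measured binding site. The starts are those of RefSeq and can differ from the gene spans of GENCODE, inside which the stretches of Psmd9 and Psme4 lie in whole and that of Psmb5 in part.

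The alpha ring of the core, whose gate admits substrates, fell as a whole: 7 of 7 subunits were lower, with log2 fold changes from -0.55 to -0.24 and a median of -0.37. Psma5, the alpha5 subunit, had the largest decrease. It stood at 76.1, 96.2 and 80.6 CPM in the Adv-ABHD11 libraries, against 115.2, 126.9 and 127.1 CPM in the Adv-NC libraries. All Adv-ABHD11 values lay below all Adv-NC values (log2 fold change -0.55, SE 0.0973, edgeR adjusted p = 0.000109). Psma6, the alpha1 subunit, had the smallest decrease, with 116.6, 127.8 and 113.2 CPM in the Adv-ABHD11 libraries against 136.0, 148.8 and 138.8 CPM in the Adv-NC libraries. The groups were again apart, with a log2 fold change of -0.24 and an SE of 0.0867 (edgeR adjusted p = 0.0218). The call of Psma6 was lost with upper-quartile scaling (adjusted p = 0.164) and on leaving out replicate 2 of Adv-NC (0.0666) or replicate 1 (0.0679) or 3 (0.0717) of Adv-ABHD11. That of Psma2, the alpha2 subunit, was lost with upper-quartile scaling (0.0839) and on leaving out replicate 1 (0.0910) or 3 (0.0635) of Adv-ABHD11.

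The 4 beta subunits without an active site were all lower, from -0.50 to -0.30 on the log2 scale. Psmb2, the beta4 subunit, stood at 107.5, 122.5 and 104.3 CPM with Adv-ABHD11 and at 150.5, 156.6 and 166.1 CPM with Adv-NC. The groups did not overlap (log2 fold change -0.50, SE 0.0899, edgeR adjusted p = 0.000117). Psmb1, the beta6 subunit, stood at 193.2, 231.2 and 186.3 CPM with Adv-ABHD11 and at 229.3, 272.9 and 247.2 CPM with Adv-NC. Here the groups overlapped, through Adv-ABHD11 replicate 2 and Adv-NC replicate 1 (log2 fold change -0.30, SE 0.0993, adjusted p = 0.0161). The call of Psmb1 was lost with upper-quartile scaling (adjusted p = 0.101) and on leaving out replicate 2 of Adv-NC (0.0661) or replicate 1 (0.0688) or 3 (0.0720) of Adv-ABHD11.

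Of the 3 constitutive catalytic subunits 2 were lower, beside 29.5% of all tested genes, and 3 genes are too few to set against that share. Psmb6, the beta1 subunit with caspase-like activity, stood at 207.6, 248.6 and 195.5 CPM with Adv-ABHD11 and at 273.6, 310.4 and 290.4 CPM with Adv-NC. It did not overlap between groups and was 1.34-fold lower (log2 fold change -0.42, SE 0.0984, edgeR adjusted p = 0.00123). Psmb7, the beta2 subunit with trypsin-like activity, stood at 140.6, 177.2 and 151.2 CPM with Adv-ABHD11 and at 182.0, 207.8 and 187.5 CPM with Adv-NC. It was 1.23-fold lower (SE of the log2 value 0.0972, adjusted p = 0.0131), a call lost with upper-quartile scaling (adjusted p = 0.0885) and on leaving out replicate 1 of Adv-ABHD11 (0.0811). Psmb7 overlaps Nek6 on the opposite strand and part of its counts are fractional, so its level has an uncertain split. Psmb5, the beta5 subunit with chymotrypsin-like activity and the usual target of proteasome inhibitors, stood at 206.0, 228.2 and 191.6 CPM with Adv-ABHD11 and at 216.4, 267.2 and 236.2 CPM with Adv-NC. The groups overlapped and it did not pass (ratio of Adv-ABHD11 to Adv-NC with a 95% interval of 0.754 to 1.002, adjusted p = 0.0831). It passed as lower on leaving out replicate 1 of Adv-NC (log2 fold change -0.26, adjusted p = 0.0307) or replicate 2 of Adv-ABHD11 (-0.26, 0.0278).

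Of the 3 immunoproteasome subunits 2 were lower and 0 higher. Of all tested genes 29.5% were lower and 29.9% higher, and 3 genes are too few to set against these shares. Psmb8, the beta5i subunit (chromosome 17, 34197721 to 34201454, plus strand, GRCm38), had the second largest decrease of all members. It stood at 66.2, 79.2 and 71.98 CPM in the Adv-ABHD11 libraries, against 130.95, 150.68 and 141.18 CPM in the Adv-NC libraries. Each Adv-ABHD11 library was far below each Adv-NC library, 1.94-fold lower between groups (log2 fold change -0.96, SE 0.0936, edgeR adjusted p = 1.03e-07). Psmb10, the beta2i subunit (chromosome 8, 105935735 to 105938444, minus strand), stood at 132.5, 147.0 and 121.0 CPM with Adv-ABHD11 and at 181.3, 205.7 and 193.0 CPM with Adv-NC, also with no overlap (1.45-fold lower, log2 fold change -0.53, SE 0.0928, adjusted p = 8.34e-05). Psmb9, the beta1i subunit (chromosome 17, 34181987 to 34187764, minus strand), was low throughout, with 10.34, 10.78 and 10.52 CPM with Adv-ABHD11 and 10.41, 13.39 and 13.13 CPM with Adv-NC. Its groups overlapped and it did not pass (log2 fold change -0.22, 95% interval of the ratio 0.698 to 1.05, adjusted p = 0.181). Psmb9 overlaps Tap1 on the opposite strand and part of its counts are fractional, so its level has an uncertain split. The leukocyte markers, whose cells are rich in immunoproteasome, were 3 lower and 1 higher of 5 tested, too few to set against the same shares. Ptprc was at 0.736 CPM with Adv-ABHD11 and 0.507 CPM with Adv-NC. Csf1r, of macrophages, was at 5.32 ± 0.340 CPM with Adv-ABHD11 and 15.99 ± 1.93 CPM with Adv-NC (SD, n = 3 each), whereas Lyz2, of myeloid cells, was higher at a mean of 31.8 CPM with Adv-ABHD11 and 20.1 CPM with Adv-NC (edgeR adjusted p = 3.23e-05). The lower call of Laptm5 was lost under 8 of 13 alternatives, Cd3e of T cells had at most 0.0553 CPM in any library, and the part of these cells in the fall of Psmb8 was not tested.

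**Figure D2:**
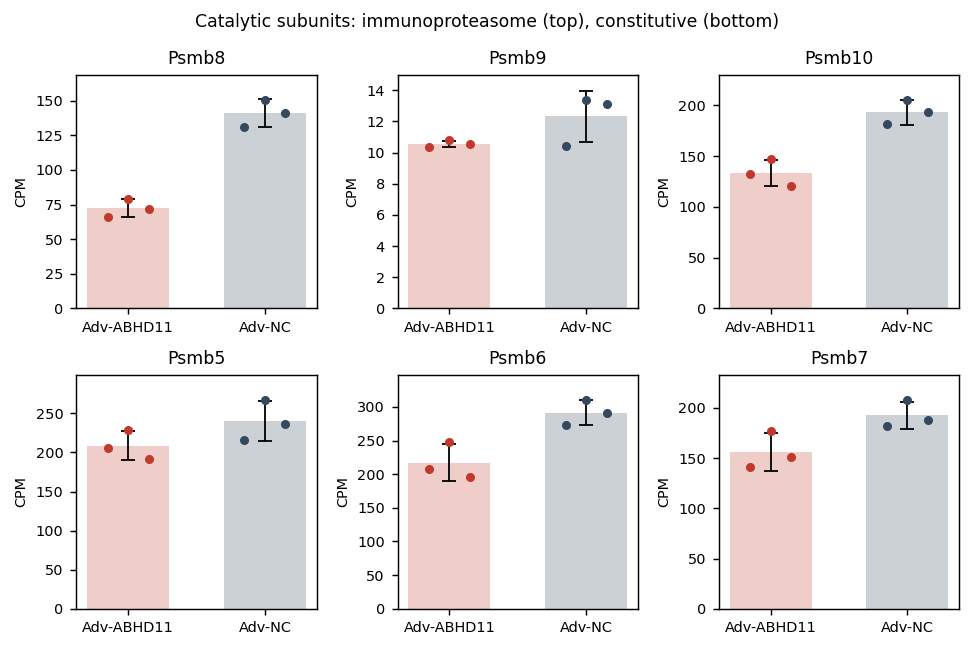
CPM of the 3 immunoproteasome subunits (top) and the 3 constitutive catalytic subunits (bottom) in each library, with bars at the group mean and error bars of 1 SD (n = 3). Psmb8 and Psmb10 are separated between Adv-ABHD11 and Adv-NC, whereas Psmb9 and Psmb5 overlap.

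Relative to the constitutive subunits the immunoproteasome set was also lower with Adv-ABHD11. The summed CPM of Psmb8, Psmb9 and Psmb10 divided by that of Psmb5, Psmb6 and Psmb7 was 0.377, 0.362 and 0.378 in the Adv-ABHD11 libraries and 0.480, 0.471 and 0.486 in the Adv-NC libraries. The groups were apart by more than the spread within them, with a difference of -0.36 on the log2 scale. Each cutting subunit was then set beside the one it replaces, per kilobase of transcript so that levels of different genes can be compared. The ratio of Psmb8 to Psmb5 was 0.178, 0.192 and 0.207 with Adv-ABHD11 and 0.334, 0.311 and 0.330 with Adv-NC, with no overlap and a log2 difference of -0.76. The ratio of Psmb10 to Psmb7 was 0.834, 0.734 and 0.708 with Adv-ABHD11 and 0.881, 0.876 and 0.911 with Adv-NC, and these did not overlap either. The GC and length correction brought the log2 fold changes of this pair near each other, to -0.40 for Psmb10 and -0.34 for Psmb7. Without it they were -0.53 and -0.30. Psmb8 and Psmb5 stayed apart under the correction, at -0.81 and -0.13. The ratio of Psmb9 to Psmb6 was 0.0294, 0.0256 and 0.0318 with Adv-ABHD11 and 0.0225, 0.0255 and 0.0267 with Adv-NC, and these overlapped. Psmb10 was thus near the level of its constitutive partner in both groups, and Psmb9 far below its own.

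**Figure D3:**
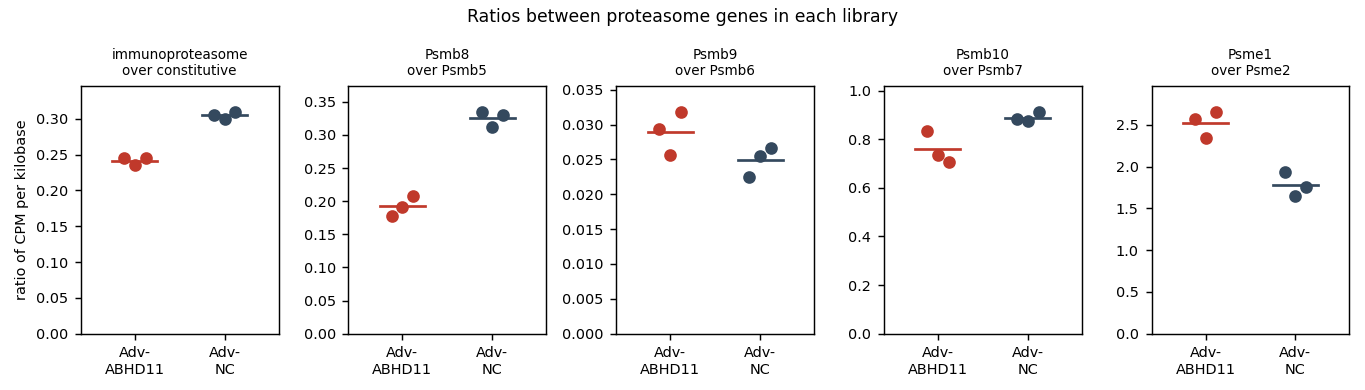
Ratios of CPM per kilobase in each library, with a line at the group mean: the immunoproteasome set over the constitutive set, the 3 pairs of cutting subunits, and Psme1 over Psme2. The Adv-ABHD11 libraries lie below the Adv-NC libraries for the whole set, Psmb8 over Psmb5 and Psmb10 over Psmb7, overlap them for Psmb9 over Psmb6, and lie above them for Psme1 over Psme2.

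The window at the RefSeq start of Psmb8 is shown because Psmb8 had the largest decrease among the cutting subunits and the window held TTCNNNGAA, the letters of the gamma-activated site known from promoters that respond to interferon gamma:
Psmb8 (chr17:34198073-34198131, plus strand): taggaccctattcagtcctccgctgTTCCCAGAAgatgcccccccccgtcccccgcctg
The capitals mark the match to a pattern that is its own reverse complement. The stretch lies before the RefSeq start but inside the gene span of GENCODE given above, whose start is further upstream. Such a match was present at 3 of the 43 members listed, Psmb8, Psmd2 and Psmg1, or 6.98%, and at 9.55% of all genes listed. The interferon response element, searched as GAAA followed after 2 bases of any kind by GAAA, was found, on either strand, at 5 of the 43 members (Psmb3, Psmd4, Psmd9, Psme1 and Psmg4), or 11.6%, against 3.99% of all genes. These letters were not in the RefSeq windows of Psmb8, Psmb9 or Psmb10.

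In the base of the regulatory particle 5 of 6 ATPases were lower. Psmc4, the ATPase Rpt3, had the largest decrease, at 147.1, 154.3 and 130.5 CPM with Adv-ABHD11 against 212.7, 225.5 and 229.6 CPM with Adv-NC. The groups were far apart (1.55-fold lower, log2 fold change -0.63, SE 0.0890, edgeR adjusted p = 9.23e-06). Psmc6, the ATPase Rpt4, had the smallest difference and did not pass, at 101.1, 138.7 and 128.2 CPM with Adv-ABHD11 and 135.3, 139.9 and 119.3 CPM with Adv-NC. The groups overlapped (log2 fold change -0.10, SE 0.108, adjusted p = 0.443). The sign of Psmc6 turned with upper-quartile scaling, at 0.0061, and on leaving out replicate 1 of Adv-ABHD11, at 0.022. Once the dependence on GC content and transcript length was removed it passed as lower at -0.41 (adjusted p = 2.68e-05). Its transcript has the lowest GC content of the 31 subunits, 36.97%.

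All 11 non-ATPase subunits of the regulatory particle with a Psm symbol were lower, and they included Psmd8, with the largest decrease of all members. Psmd8, the lid subunit Rpn12 (chromosome 7, 29174188 to 29180701, minus strand), stood at 213.73, 249.98 and 216.96 CPM in the Adv-ABHD11 libraries against 418.6, 489.8 and 517.3 CPM in the Adv-NC libraries. No value of one group came near the other, and the level was 2.09-fold lower (log2 fold change -1.07, SE 0.0998, edgeR adjusted p = 6.14e-08). Under the alternative settings its log2 fold change ran from -1.14 to -0.95. Psmd11, the lid subunit Rpn6, which braces the contact of lid and core, was 1.77-fold lower, at 80.3 ± 2.44 CPM with Adv-ABHD11 and 142.4 ± 9.53 CPM with Adv-NC (SD, n = 3 each). Psmd3, the lid subunit Rpn3, was 1.70-fold lower, at 166.9 ± 8.33 CPM with Adv-ABHD11 and 284.4 ± 17.2 CPM with Adv-NC. Psmd4, the ubiquitin receptor Rpn10, was 1.61-fold lower, at 173.0 ± 17.3 CPM with Adv-ABHD11 and 278.0 ± 15.5 CPM with Adv-NC (edgeR adjusted p at or below 5.63e-06 for these 3 genes). Psmd14, the deubiquitinase Rpn11 of the lid, stood at 34.0, 43.9 and 45.8 CPM with Adv-ABHD11 and at 58.0, 56.0 and 54.2 CPM with Adv-NC, with no overlap (1.36-fold lower, adjusted p = 0.00192).

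The smallest decrease of this set was that of Psmd13, the lid subunit Rpn9, at 206.4, 236.1 and 187.3 CPM with Adv-ABHD11 and 235.0, 263.1 and 243.9 CPM with Adv-NC. The groups just overlapped (log2 fold change -0.24, SE 0.0958, edgeR adjusted p = 0.0411). This call was lost under 7 of 13 alternative settings, with adjusted p up to 0.234 with upper-quartile scaling. The other settings were library size only (0.0530), the GC and length correction (0.133), and leaving out replicate 2 (0.116) or 3 (0.0773) of Adv-NC or replicate 1 (0.105) or 3 (0.169) of Adv-ABHD11. Psmd13 overlaps Sirt3 on the opposite strand. The call of Psmd6, the lid subunit Rpn7, was lost with upper-quartile scaling (adjusted p = 0.0717).

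The summed level was lower by a larger share in the regulatory particle than in the core. The 17 regulatory subunits summed to 2586, 2869 and 2588 CPM with Adv-ABHD11 and to 3669, 3960 and 3984 CPM with Adv-NC, a mean 30.7% lower. The 14 core subunits summed to 2097, 2528 and 2081 CPM with Adv-ABHD11 and to 2688, 3097 and 2873 CPM with Adv-NC, a mean 22.5% lower. Per kilobase, the ratio of regulatory to core sums was 0.741, 0.693 and 0.755 with Adv-ABHD11 and 0.832, 0.783 and 0.844 with Adv-NC, so that no library of one group reached the other. This separation depends on Psmd8, at 147.3 CPM per kilobase with Adv-ABHD11 and 308.6 with Adv-NC, and does not describe the particle as a whole. The median log2 fold changes lay closer, at -0.44 in the regulatory particle and -0.37 in the core. The log2 fold changes were also more spread in the regulatory particle, with an SD of 0.237 over 17 genes, than in the core, with an SD of 0.0942 over 14 genes.

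**Figure D4:**
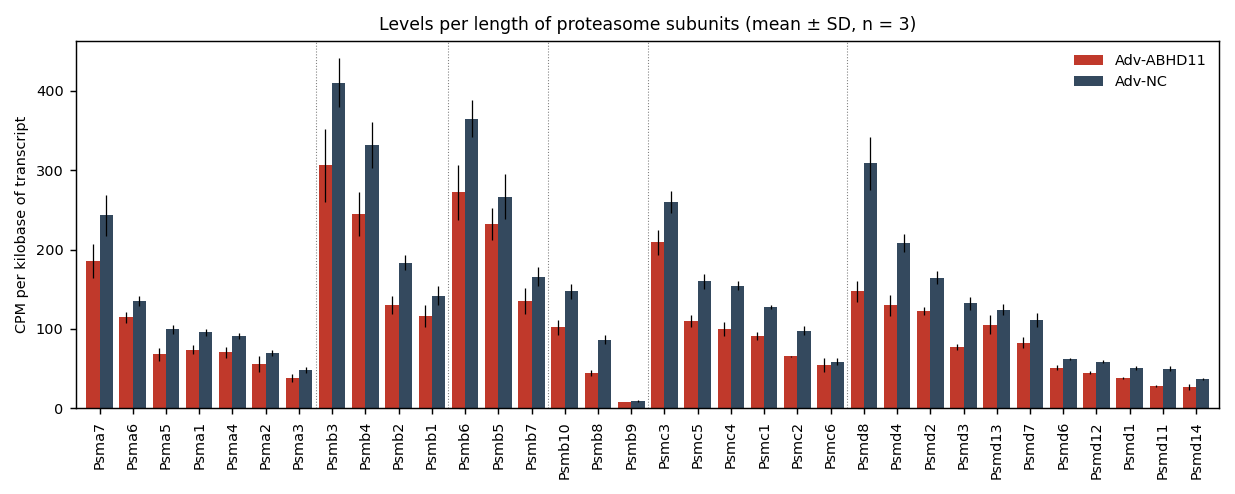
Mean CPM per kilobase of transcript with 1 SD (n = 3) for the alpha ring, structural beta, constitutive catalytic, immunoproteasome, ATPase and non-ATPase subunits, separated by dotted lines, Adv-ABHD11 beside Adv-NC. Within each set the genes stand in the order of their Adv-NC level, and Psmd8 shows the widest gap between groups.

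Although the complex holds its subunits in fixed proportions, their mRNA levels per kilobase were spread about as widely in both groups. In the core they ran from 37.6 CPM per kilobase for Psma3 to 306.1 for Psmb3 with Adv-ABHD11 and from 48.0 to 410.3 for the same genes with Adv-NC. In the regulatory particle they ran from 26.8 for Psmd14 to 209.4 for Psmc3 with Adv-ABHD11 and from 36.4 for Psmd14 to 308.6 for Psmd8 with Adv-NC. Thus Psmd8 led the regulatory particle with Adv-NC and stood at 147.3 with Adv-ABHD11, below Psmc3. Lengths were those of the principal annotated transcript, and the isoforms in use were not given. They were 2846 bases for Psma3 and 2911 bases for Psma2, and a shorter isoform would raise the level of either gene. Across the 31 genes the Spearman correlation of log2 fold change was -0.346 with GC content, -0.0391 with transcript length and -0.181 with the Adv-NC level. These describe genes of the same 6 libraries, which are not independent.

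Of the 4 tested activators, which open the core in place of the regulatory particle, 1 was higher, 2 were lower and 1 did not pass. Of all tested genes 29.9% were higher and 29.5% lower, and 4 genes are too few to set against these shares. Psme4 (PA200, a nuclear activator known from the breakdown of acetylated histones; chromosome 11, 30771726 to 30880361, plus strand) stood at 85.5, 83.4 and 99.7 CPM with Adv-ABHD11 and at 67.9, 51.5 and 54.2 CPM with Adv-NC. The groups did not overlap and the level was 1.55-fold higher (log2 fold change 0.63, SE 0.109, edgeR adjusted p = 7.78e-05). It stayed past the threshold under all 13 alternatives, from 0.44 with the GC and length correction to 0.77. Psme3 (PA28 gamma, the other nuclear activator) moved the opposite way, at 78.4, 78.4 and 81.6 CPM with Adv-ABHD11 and 117.2, 119.9 and 128.7 CPM with Adv-NC, again with no overlap (1.53-fold lower, SE of the log2 value 0.0845, adjusted p = 6.23e-06). Per kilobase, the ratio of Psme4 to Psme3 was 0.448, 0.437 and 0.502 with Adv-ABHD11 and 0.238, 0.176 and 0.173 with Adv-NC.

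The genes of the interferon-inducible activator PA28, which joins 2 kinds of subunit in a ring, also parted. Psme2 (PA28 beta) stood at 115.8, 138.6 and 108.0 CPM with Adv-ABHD11 and at 128.1, 163.3 and 155.4 CPM with Adv-NC. Its groups overlapped through Adv-ABHD11 replicate 2 and Adv-NC replicate 1, and it was 1.23-fold lower (SE of the log2 value 0.108, edgeR adjusted p = 0.0222). Psme1 (PA28 alpha) stood at 344.2, 374.3 and 330.8 CPM with Adv-ABHD11 and at 287.2, 312.1 and 315.1 CPM with Adv-NC. All Adv-ABHD11 values were above all Adv-NC values, but it did not pass (log2 fold change 0.20, SE 0.0877, adjusted p = 0.0599). Per kilobase, the ratio of Psme1 to Psme2 was 2.57, 2.34 and 2.65 with Adv-ABHD11 and 1.94, 1.65 and 1.75 with Adv-NC, with no overlap. Psme1 passed as higher with upper-quartile scaling (log2 fold change 0.31, adjusted p = 0.00441), library size only (0.24, 0.0101), the GC and length correction (0.29, 0.000293), DESeq2 (0.19, 0.0457) and on leaving out replicate 3 of Adv-ABHD11 (0.23, 0.0499). The call of Psme2 was lost with upper-quartile scaling (adjusted p = 0.119) and on leaving out replicate 2 (0.0838) or 3 (0.0833) of Adv-NC or replicate 1 (0.0755) or 3 (0.103) of Adv-ABHD11. Psme2 has a close copy in Psme2b, and some of its counts are fractional.

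Psmf1 (PI31, named as an inhibitor of the core) was lower, at 40.8, 42.1 and 44.1 CPM with Adv-ABHD11 and 53.8, 55.1 and 62.2 CPM with Adv-NC. The groups were apart (1.35-fold lower, log2 fold change -0.43, SE 0.0943, edgeR adjusted p = 0.000758).

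**Figure D5:**
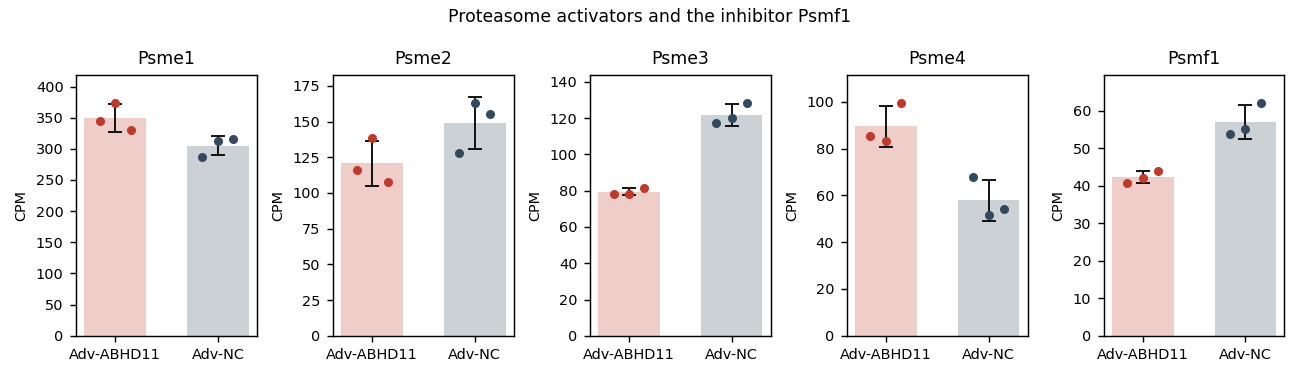
CPM of the 4 tested activators and of Psmf1 in each library, with bars at the group mean and error bars of 1 SD (n = 3), Adv-ABHD11 left of Adv-NC. Psme4 is higher and Psme3 and Psmf1 are lower with Adv-ABHD11 without overlap, while Psme1 is separated but did not pass and Psme2 overlaps.

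Of the 7 assembly chaperones, which help to join the subunits, 2 were lower, 0 higher and 5 did not pass. The share lower, 28.6%, is near the 29.5% of all tested genes. Of the chaperones of the base, Psmd5 was lower at 40.8, 49.4 and 40.3 CPM with Adv-ABHD11 and 60.2, 76.7 and 71.1 CPM with Adv-NC, with no overlap (1.59-fold lower, log2 fold change -0.67, SE 0.109, edgeR adjusted p = 4.03e-05). Psmd9 stood at 32.0, 39.7 and 35.7 CPM with Adv-ABHD11 and at 40.1, 46.4 and 40.6 CPM with Adv-NC. It did not pass (log2 fold change -0.24, SE 0.105, adjusted p = 0.0557), although the groups lay just apart. It passed as lower with RLE scaling (adjusted p = 0.0485) and on leaving out replicate 1 of Adv-NC (0.0482) or replicate 2 of Adv-ABHD11 (0.0201). Psmd10, known as gankyrin, was at 11.03 ± 0.775 CPM with Adv-ABHD11 and 13.3 ± 0.632 CPM with Adv-NC (SD, n = 3 each; adjusted p = 0.0832) and passed with the GC and length correction (-0.43, adjusted p = 0.00281).

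Of the chaperones of the core, Psmg4 had the lowest log2 fold change, -0.53 with an SE of 0.175 (edgeR adjusted p = 0.0143), at 6.04, 8.24 and 5.31 CPM with Adv-ABHD11 and 8.47, 10.4 and 9.44 CPM with Adv-NC. The groups were just apart, and the call was lost on leaving out replicate 2 of Adv-NC (adjusted p = 0.0531) or replicate 3 of Adv-ABHD11 (0.0826). Psmg2, which pairs with Psmg1 to start the alpha ring, had the highest value, 0.27 with an SE of 0.118, at 18.4, 18.6 and 17.6 CPM with Adv-ABHD11 and 14.5, 16.3 and 14.4 CPM with Adv-NC. It did not pass (adjusted p = 0.0559) but did with upper-quartile scaling (0.0106) and library size only (0.0325). Psmg1 stood at 23.7 ± 3.01 CPM with Adv-ABHD11 and 23.2 ± 0.505 CPM with Adv-NC (SD, n = 3 each; adjusted p = 0.872), with a 95% interval of the ratio of 0.861 to 1.20. Psmg3 was at 15.2 ± 3.38 CPM with Adv-ABHD11 and 18.8 ± 2.79 CPM with Adv-NC (adjusted p = 0.0938), and it passed as lower on leaving out replicate 1 of Adv-NC (0.0243) or replicate 2 of Adv-ABHD11 (0.00610). Of the name matches, Psme3ip1 was 1.28-fold lower (adjusted p = 0.00224). Psmc3ip did not pass at 1.21 ± 0.299 CPM with Adv-ABHD11 and 1.96 ± 0.807 CPM with Adv-NC (adjusted p = 0.0918), and it passed on leaving out replicate 1 of Adv-NC (0.0150).

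Parts and regulators of the proteasome that carry other names were 9 lower and 2 higher of 16 tested, with a median log2 fold change of -0.26 beside 0.016 for all tested genes, of which 29.5% were lower and 29.9% higher. The higher calls, of the deubiquitinase Uchl5 and the proteasome-binding scaffold Ecpas, were both lost with the GC and length correction and on leaving out replicate 2 or 3 of Adv-NC or replicate 3 of Adv-ABHD11. In all, the call of Uchl5 was kept under 7 of 13 alternatives and that of Ecpas under 9. Adrm1, the ubiquitin receptor Rpn13, fell to 94.0 ± 4.19 CPM with Adv-ABHD11, against 192.7 ± 19.0 CPM with Adv-NC (SD, n = 3 each; log2 fold change -1.04, edgeR adjusted p = 3.28e-08). Sem1, another part of the regulatory particle, did not pass, at 52.9 ± 4.67 CPM with Adv-ABHD11 and 53.0 ± 3.41 CPM with Adv-NC. Its log2 fold change was -0.0021 (edgeR adjusted p = 0.987), with a sign that turned under 5 of 13 alternatives. Zfand2a, a stress-inducible zinc finger protein that binds the proteasome, fell to 14.2 ± 1.98 CPM with Adv-ABHD11, against 88.2 ± 3.40 CPM with Adv-NC (log2 fold change -2.64, adjusted p = 1.35e-12). Zfand5, a zinc finger protein known to activate the proteasome, was at -0.84 and Txnl1, a thioredoxin-like protein of the regulatory particle, at -0.62 on the log2 scale (adjusted p at or below 1.75e-05). Pomp, the chaperone that matures the core, was at 59.4 ± 4.77 CPM with Adv-ABHD11 and 71.1 ± 5.48 CPM with Adv-NC (log2 fold change -0.26, adjusted p = 0.0253), a call kept under 9 of 13 alternatives. Nfe2l1 was at 383.1 ± 1.88 CPM with Adv-ABHD11 and 405.3 ± 23.2 CPM with Adv-NC and did not pass (log2 fold change -0.08, adjusted p = 0.428), with a sign that turned under 2 of 13 alternatives. Nfe2l2 was lower, at 93.8 ± 1.55 CPM with Adv-ABHD11 and 132.6 ± 13.2 CPM with Adv-NC (log2 fold change -0.50, adjusted p = 0.000134).

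Genes that supply ubiquitin or bring tagged proteins to the proteasome were 14 lower and 0 higher of 18 tested (29.5% and 29.9% of all tested genes), with a median log2 fold change of -0.43, and 11 to 15 were lower under the alternatives. Ubb, a polyubiquitin gene, fell to 1938 ± 234 CPM with Adv-ABHD11, against 3708 ± 221 CPM with Adv-NC (SD, n = 3 each; log2 fold change -0.94, edgeR adjusted p = 8.51e-07). It is made of near-identical repeats, so the assignment of its reads is uncertain. Nploc4, a cofactor of the segregase VCP, was at -0.82 and Faf2, an adaptor of VCP at the endoplasmic reticulum, at -0.64 on the log2 scale (adjusted p at or below 3.82e-06).

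Genes of class I presentation and of the interferon gamma axis, to which the immunoproteasome belongs, were 7 lower and 5 higher of 16 tested, with a median log2 fold change of -0.15, where 29.5% of all tested genes were lower and 29.9% higher. The higher share of the list is near that of all genes. The class I heavy chains H2-K1 and H2-D1 fell to 993 ± 25.9 and 990 ± 56.7 CPM with Adv-ABHD11, against 2444 ± 36.8 and 2478 ± 70.0 CPM with Adv-NC (SD, n = 3 each; log2 fold changes -1.30 and -1.32, edgeR adjusted p at or below 1.99e-09). They are similar in sequence, so reads may be shared between them. Tapbp, which loads peptides on class I, was at -1.21 and the interferon-induced GTPase Gbp2 at -0.92 on the log2 scale (adjusted p at or below 1.60e-07). Among the higher genes, named after their values were seen, were the transcription factors Irf1 and Irf8 and the receptor chains Ifngr1 and Ifngr2. Ifngr2 was at 278.6 ± 26.7 CPM with Adv-ABHD11 and 162.7 ± 8.41 CPM with Adv-NC (log2 fold change 0.78, adjusted p = 1.13e-06). Tap1, the peptide transporter whose gene lies beside Psmb9, was at 116.6 ± 5.24 CPM with Adv-ABHD11 and 115.2 ± 7.82 CPM with Adv-NC and did not pass (adjusted p = 0.887). The GC and length correction gave 8 lower and 6 higher, and the other 12 alternatives gave 7 and 5.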

How the data were processed

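The authors deposited 1 table of expected counts per gene symbol for each library, and 8.92 to 10.1% of the genes above 0 in a library were not whole numbers. The submitters' processing notes name Trimmomatic 0.39, HISAT2, RSEM, DESeq2 and the build mm10 without roles, and no source used here gives the annotation, filters or strandedness. Counts of 20 of the 51 members may therefore include reads of a gene annotated on the opposite strand, and 7 members had fractional counts. Counts were rounded to whole numbers, and for 22 rows that repeat a symbol (0.009% of counts, no member) the row with most counts was kept. Genes were filtered with filterByExpr (minimum count 10, total 15), scaled by TMM and tested with edgeR 4.0.16 (quasi-likelihood F test, R 4.3.3, Benjamini-Hochberg over all 12790 genes). The SE is the size of the log2 fold change over the root of its F statistic. CPM use TMM-scaled library sizes, and values per kilobase use the principal transcript of GENCODE M21 (GRCm38). Alternatives were RLE, upper-quartile and no scaling, no filter, DESeq2 1.42.0, a replicate block, removal of a GC and length trend by splines, and each library left out. Members and lists were chosen with earlier results of these data known. Values per library were printed for the catalytic subunits, activators and Psmf1, and for the highest and lowest log2 fold change of each other subgroup. Other members named in the text, and Irf1, Irf8, Ifngr1, Ifngr2, Tap1, Uchl5, Ecpas and Sem1, were added after their values were seen. For other lists up to 4 genes with the smallest adjusted p, and Nfe2l1, Nfe2l2 and Pomp, were named; some listed genes are not reported here. The test was tried on simulated data with known changes. It recovered 33 of 50 changes of 1.5-fold and 45 of 50 of 2-fold, with 10 false calls among 187. Changes smaller than 1.5-fold were not simulated, so a member that did not pass may still differ.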

Additional observations from a re-analysis of the deposited data

How the results depend on the processing

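The number of lower members was 37 and ran from 30 with upper-quartile scaling to 41 without Adv-NC replicate 1. The core held 9 to 14 lower subunits and the regulatory particle 14 to 16. The number of higher members was 1, and became 3 with upper-quartile scaling, library size only or the replicate block, and 2 with DESeq2 or the GC and length correction; with 1 library left out it ran from 1 to 2. Upper-quartile scaling shifted the median of all genes by 0.107 on the log2 scale and moved the higher share of all calls to 59.7%, against 50.4% with TMM; the median of the 31 subunits was then -0.32. Signs turned for Psmc6 (0.0061 with upper-quartile scaling, and -0.19 to 0.022 with 1 library left out, above 0 without Adv-ABHD11 replicate 1) and for Psmg1 (-0.045 to 0.12 with 1 library left out, below 0 at -0.0019 and -0.045 without replicate 1 or 2 of Adv-ABHD11); the cause was not tested. The log2 difference of the immunoproteasome to constitutive ratio was -0.36, -0.34 per kilobase, and -0.38 to -0.34 with 1 library left out. Deviations of same-numbered libraries correlated at 0.0104, 0.204 and -0.104 across genes, and 1 Adv-ABHD11 library of 3 correlated best with its own number. With so few libraries this cannot show whether the replicate numbers pair the samples. With the replicate block 40 members were lower and 3 higher, since Psmb5, Psmd9 and Psmg3 passed as lower and Psme1 and Psmg2 as higher. In all, 570 of 624 repeats of single members kept direction and call, 28 lost the call, 22 gained it and 4 changed sign. The 3 libraries a group and their depth limit which small differences can be called.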

Other observations

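Ubiquitin ligases and substrate adaptors of muscle were 3 higher and 4 lower of 9 tested, with a median log2 fold change of -0.06, where 29.9% of all tested genes were higher and 29.5% lower, and these counts held under all 13 alternatives. Trim55, a ligase of the sarcomere known as MuRF2, was at 229.7 ± 1.41 CPM with Adv-ABHD11 and 106.8 ± 7.61 CPM with Adv-NC (SD, n = 3 each; log2 fold change 1.11, edgeR adjusted p = 5.43e-09). Asb2, a muscle adaptor of a cullin ligase, was at 451.6 ± 38.3 CPM with Adv-ABHD11 and 241.7 ± 30.6 CPM with Adv-NC (log2 fold change 0.90, adjusted p = 6.25e-07). Trim54, known as MuRF3, was lower at 28.5 ± 1.83 CPM with Adv-ABHD11 and 45.4 ± 4.53 CPM with Adv-NC (log2 fold change -0.67, adjusted p = 2.55e-05), and so was Fbxo30, an F-box protein of muscle wasting (log2 fold change -0.67, adjusted p = 0.000371). The 7 cardiomyocyte markers were all higher in the same libraries, and the part of that shift was not tested.

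The CCAAT box, bound by NF-Y, was found on either strand in the promoter window of 16 of the 43 members listed, or 37.2%, against 41.1% of all genes listed.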
